A study of Mus musculus with 4 samples.

Results

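Insertions of a single base outside coding frames were examined in RNA of 2 mouse cancer cell lines, MBT2 and LM8. A variant belonged to the set when its alternative allele was exactly 1 base longer than the reference allele and its annotated effect was not a frameshift. The set held 535 of the 6361 variants listed in MBT2 and 466 of the 5445 listed in LM8, at 831 sites of 10545 in all when each site was counted once. No read value entered this rule.

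MBT2 (clone label MBT2#63) is a bladder cancer line grown in RPMI-1640 medium, and LM8 is an osteosarcoma line grown in MEM medium with 24 mM HEPES. Both lines are syngeneic with C3H/HeN mice, both media held 10% serum, and neither line was treated. Each line gave 2 strand-specific libraries of poly(A) RNA, sequenced from both fragment ends for 75 bases. Separate cultures are not stated for the duplicates of a line, and their spread may then be technical only. Each line is a single cell population, and no normal C3H tissue was sequenced beside it.

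The lists hold variants and no expression levels, so the labelled tissue of origin could not be checked by marker levels. Of 10 osteoblast and mesenchymal genes, 0 had any listed variant in MBT2 and 3 had one in LM8. Of 12 epithelial and urothelial genes, 0 had a listed variant in MBT2 and 0 had one in LM8.

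Runs of a single repeated base, or homopolymers, are frequent in mammalian untranslated regions. Polymerases and reverse transcriptases can slip on such runs and add or drop a base, and mismatch repair mends the slips made during DNA replication. An added base in a coding run shifts the reading frame, whereas an added base in a 3′ untranslated region (3′ UTR) leaves the protein sequence as it is. A 3′ UTR carries binding sites for microRNAs and RNA-binding proteins, and its end carries the poly(A) tail. A variant list made from RNA holds the changes of the genome together with changes made in RNA or during library preparation.

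Typical members of the set are shown here because the same design recurs in most of them, a run of 6 or 7 A or T with 1 base added. The letters are those of the RNA strand, written as DNA, 5′ to 3′, from GENCODE M21 transcripts. The capitals mark the reference run, which is 1 base longer in the variant reads. The first 4 were among the 10 deepest members of a line, the next 2 were in fixed gene lists and were listed in both lines, and the last 2 lie in the 3′ UTR of 1 gene.
Cnbp: gaaaggggtggAAAAAAccgaatttctg
Sec61a1: ctggcattggcAAAAAAccagtagaagt
Txn1: ttttaatttgcAAAAAActatgaagtgt
P4hb: tggtggtgtacTTTTTTgtatgtggaat
Stag2: ctgtggtagccAAAAAAccataggttaa
Zfp36l2: gttttagaagAAAAAAAtcagcccagca
Scd1, first site: ttctttggccTTTTTTTctttctccgga
Scd1, second site: tgattagagcTTTTTTTaaaaaccaagt

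The runs of Cnbp, Sec61a1, Txn1 and P4hb begin 146, 204, 63 and 255 bases after the stop codon in these transcripts. Cnbp encodes a nucleic acid binding zinc finger protein, Sec61a1 the pore subunit of the translocon of the endoplasmic reticulum, Txn1 thioredoxin, and P4hb a protein disulfide isomerase. At Cnbp, on chromosome 6 at position 87820869 of GRCm39, the added A was in 33 of 1171 and 35 of 1269 reads of the MBT2 libraries and in 23 of 1056 and 19 of 1057 reads of the LM8 libraries. All 4 libraries of both lines thus carried the added base in a small part of the reads. At Sec61a1, at position 88481879 of the same chromosome, the added A was in 60 of 1038 and 57 of 950 reads of LM8, or 5.89% of reads. At P4hb, on chromosome 11 at position 120451748, the added T was in 27 of 1363 and 19 of 1483 reads of MBT2, or 1.62% of reads.

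The added base was A or T, on the strand given in the files, in 518 members of MBT2 (96.8%) and 447 of LM8 (95.9%). The caller annotated a repeat at 517 members of MBT2 and 454 of LM8. Runs of 6 copies held 293 members of MBT2 and 253 of LM8, and runs of 7 copies held 184 and 163. Together these lengths took 477 members of MBT2 (89.2%) and 416 of LM8 (89.3%), while runs of 8 or more copies held 6 members of MBT2 and 6 of LM8. The remaining members lay in shorter runs or outside any annotated repeat.

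**Figure D1:**
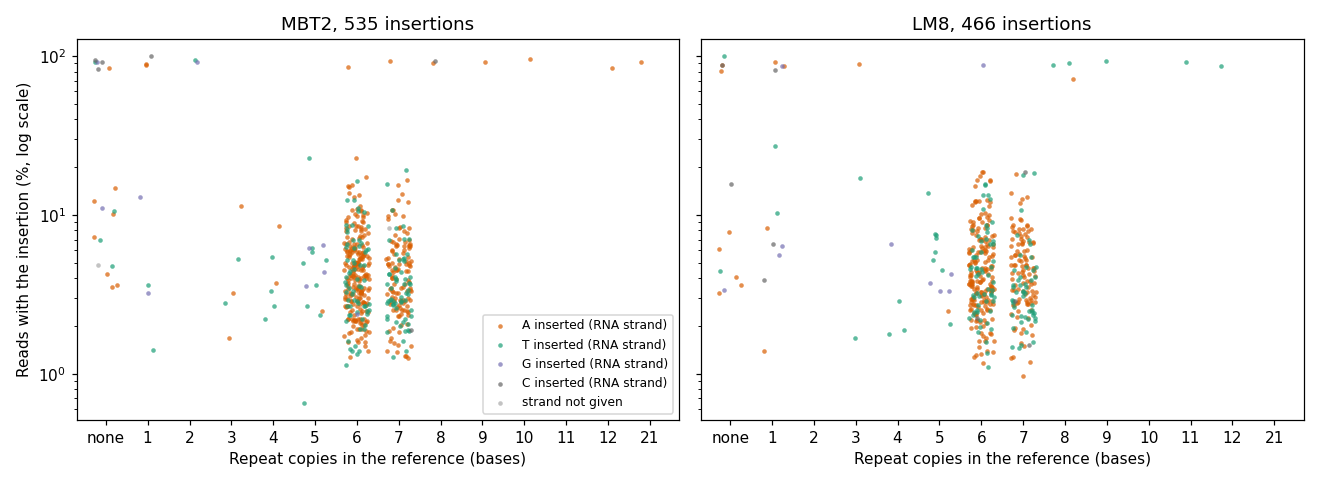
Percent of reads with the insertion (log axis, libraries summed) against the number of repeat copies in the reference, for each member in MBT2 (left) and LM8 (right), with steps between 12 and 21 copies left out of the axis, horizontal jitter and colour for the base added on the RNA strand. Most points stand at 6 and 7 copies and below 22.9% of reads, and all points at 8 or more copies stand above 70%.

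The directional libraries allowed the RNA strand of 533 members of MBT2 and 466 of LM8 to be read from the orientation of the read pairs. On that strand the added base was A in 368 members of MBT2 (69.0%, 95% interval 64.9 to 72.9, exact binomial) and in 315 of LM8 (67.6%, 63.1 to 71.8). It was T in 149 members of MBT2 (28%) and 132 of LM8 (28.3%). Among members in 3′ UTRs, T made up 33.0% in MBT2 and 33.2% in LM8. Frameshift insertions of a single base, the coding counterpart, had T in 5.60% of 232 in MBT2 and 4.09% of 171 in LM8, with 95% intervals of 3.01 to 9.39 and 1.66 to 8.25 that lie below the members' intervals. These intervals cover counting error over sites only, and take the sites as independent. Amplified copies of 1 molecule can be read more than once, which the intervals of read fractions given below do not cover. The number of A and T runs within coding frames was not counted.

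Where the runs themselves could be counted, A runs of 6 and 7 bases carried listed insertions more often than T runs of the same lengths. Of the 217 members in 3′ UTRs of MBT2 and 193 of LM8, 182 and 168 were placed on a GENCODE M21 transcript of their gene. Only these placed members were counted, so a run whose insertion carried an upstream or downstream label was scored as without one. The transcripts were chosen because they hold a member, so the shares that follow describe these transcripts and are too high for 3′ UTRs in general. In MBT2 a listed insertion fell on 66 of 278 runs of exactly 6 A (23.7%) and 52 of 166 runs of 7 A (31.3%), against 25 of 414 runs of 6 T (6.04%) and 25 of 214 runs of 7 T (11.7%). In LM8 it fell on 54 of 262 runs of 6 A (20.6%) and 53 of 151 runs of 7 A (35.1%), against 24 of 379 runs of 6 T (6.33%) and 23 of 167 runs of 7 T (13.8%). Shorter runs rarely carried one. At 5 bases it was 0 of 811 A runs and 5 of 1218 T runs in MBT2, and 0 of 679 A runs and 6 of 1047 T runs in LM8. At 4 bases it was 0 of 2553 A runs and 2 of 3365 T runs in MBT2, and 0 of 2217 and 1 of 3072 in LM8.

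Few runs of 8 bases held an insertion. In MBT2, 1 of 48 runs of 8 A and 0 of 74 runs of 8 T held a listed insertion, and in LM8 1 of 39 and 1 of 60 did. All of these insertions at 8 or more copies were in at least 70% of reads, so none belonged to the low-fraction class of the runs of 6 and 7. The lists hold only calls that passed the authors' filters, and runs without a listed insertion may lack reads. Neither point was tested.

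**Figure D2:**
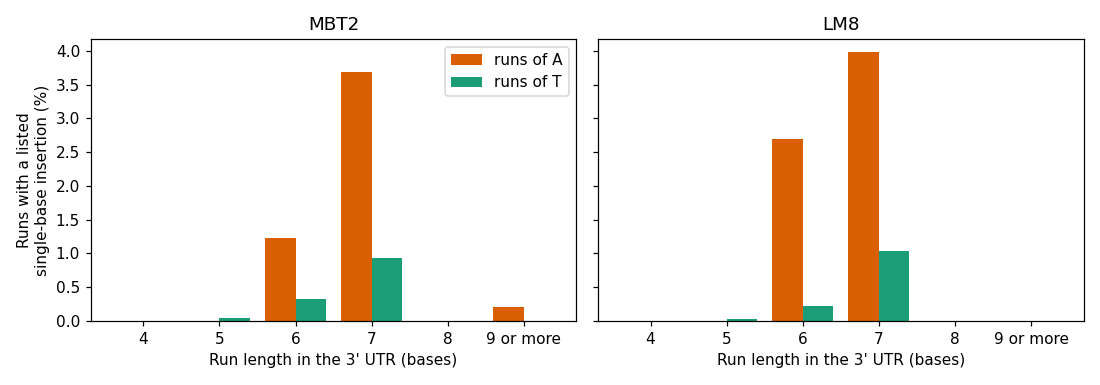
Percent of A runs and T runs in 3′ UTRs that held a listed single-base insertion, by run length, in MBT2 (left) and LM8 (right). Only insertions labelled 3′ UTR and placed on the transcript were counted. The runs are those of 1107 transcripts (MBT2) and 987 transcripts (LM8) of genes chosen by a listed 3′ UTR substitution and not by an insertion. The highest bars are those of 7 A, 3.69% in MBT2 and 3.98% in LM8, and no run of 8 holds one.

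Transcripts chosen through a 3′ UTR substitution, a choice that did not use the insertions, gave lower shares in the same order within each line. In MBT2 the share was 1.23% of 895 runs of 6 A and 3.69% of 488 runs of 7 A, against 0.327% of 1528 runs of 6 T and 0.937% of 747 runs of 7 T. In LM8 it was 2.69% of 781 runs of 6 A and 3.98% of 377 runs of 7 A, against 0.216% of 1388 runs of 6 T and 1.04% of 672 runs of 7 T. The exact 95% intervals of the 7 A and 7 T shares did not overlap, with 2.2 to 5.77 against 0.378 to 1.92 in MBT2 and 2.24 to 6.48 against 0.420 to 2.13 in LM8. Those of 6 A and 6 T overlapped in MBT2 (0.615 to 2.19 against 0.106 to 0.762) and did not in LM8 (1.67 to 4.08 against 0.0446 to 0.630). No insertion labelled 3′ UTR was placed at 200 runs of 8 A in MBT2 or at 163 in LM8.

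The bases beside the listed runs differed from those beside all runs of 6 or 7 bases in the same 3′ UTRs, listed runs included. Of 187 placed A runs of 6 or 7, each site counted once over both lines, 101 had C just before the run (54.0%), 71 had G (38.0%) and 15 had T (8.02%). Over all 700 such runs in the same 3′ UTRs the shares were 35.1% C, 32.7% G and 32.1% T. Of 82 placed T runs, 46 had C before the run (56.1%), 26 had G and 10 had A (12.2%), against 35.4% C and 36.1% A over all 962 runs. The added base is written at the 5′ end of the run on one genome strand and at its 3′ end on the other, so the flank, unlike the written position, does not depend on the strand. The listed A runs lay a median of 905 bases after the stop codon and 1116 bases before the transcript end, and the T runs 749 and 788.5 bases. The runs are thus mostly far from the annotated poly(A) end, with a least distance of 27 bases for A runs and 41 for T runs.

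By the annotated effect, 217 members of MBT2 and 193 of LM8 lay in 3′ UTRs. A downstream label was given to 166 members of MBT2 and 155 of LM8, and an upstream label to 115 and 96. Introns held 15 and 5 members, 5′ UTRs 9 and 5, intergenic sequence 8 and 7, splice sites 5 and 3, and non-coding exons 0 and 2. The upstream and downstream labels name a gene at most 4993 bases away in MBT2 and 4986 in LM8, with median distances of 1859 and 1917 bases.

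Upstream and downstream members were almost all read from the plus strand of the genome, whereas 3′ UTR members were mostly read from the minus strand. In MBT2, 260 of 281 upstream and downstream members were on plus-strand RNA (92.5%, exact interval 88.8 to 95.3), against 46 of 215 in 3′ UTRs (21.4%, 16.1 to 27.5). In LM8, 243 of 251 were on plus-strand RNA (96.8%, 93.8 to 98.6), against 44 of 193 (22.8%, 17.1 to 29.4). Frameshift insertions were on plus-strand RNA in 30.2% of 232 in MBT2 and in 26.9% of 171 in LM8. Over all labels together the members were 61.4% plus in MBT2 and 63.7% plus in LM8.

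Substitutions labelled upstream, downstream or 3′ UTR did not show this split. Upstream and downstream substitutions were on plus-strand RNA in 145 of 270 cases in MBT2 (53.7%, 47.6 to 59.8) and 112 of 230 in LM8 (48.7%, 42.1 to 55.4). Substitutions in 3′ UTRs were on plus-strand RNA in 45.1% of 1285 in MBT2 and 43.5% of 1099 in LM8. Synonymous coding substitutions were on plus-strand RNA in 29.5% of 332 in MBT2 and 32.8% of 320 in LM8. For substitutions that change an amino acid it was 34.4% of 750 and 35.3% of 634. A lean to minus-strand RNA was thus not particular to the frameshift insertions. What joins the label of an insertion to the strand was not tested.

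**Figure D3:**
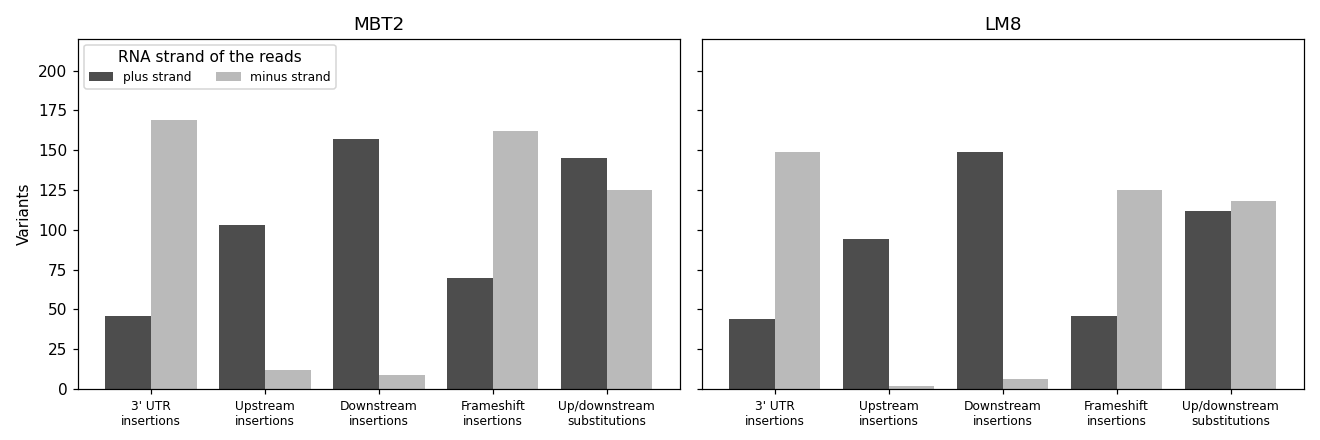
Numbers of variants on plus-strand (dark) and minus-strand (light) RNA by annotated effect, in MBT2 (left) and LM8 (right). Upstream and downstream insertions are nearly all plus, 3′ UTR and frameshift insertions are mostly minus, and substitutions labelled upstream or downstream are close to even.

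The gene named by an upstream or downstream label was often on the other strand. Where the strand of the named gene was known, it matched the reads at 187 of 275 such members of MBT2 (68.0%) and 178 of 248 of LM8 (71.8%). For substitutions with these labels it matched at 193 of 262 in MBT2 (73.7%) and 134 of 213 in LM8 (62.9%). In 3′ UTRs it matched at 212 of 214 in MBT2 and 193 of 193 in LM8. The span of a gene, taken between its outermost listed variants of other effects, enclosed 21 upstream or downstream members of MBT2 and 15 of LM8, and the strand of the enclosing gene matched the reads at 21 and 15. The enclosing gene was the one named by the label in 13 and 10 of them. All 281 and 251 are therefore described by position, and the gene in their label is not taken as the source of the RNA.

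Gm37676, among the genes named by most members in both lines, shows this. It was named at 3 sites of chromosome 1 in both lines, read from the plus strand, while the gene itself is on the minus strand. The sites at 131859555 and 131862156 lie between variants of Nucks1, a plus-strand gene for a nuclear chromatin-associated phosphoprotein, at 131858837 and 131863927. At 131859555 the added A of a run of 6 was in 25 of 301 and 28 of 361 reads of MBT2 and in 24 of 393 and 18 of 328 reads of LM8, or 8.01% and 5.83%. At 131862156 the added T of a run of 7 was in 3.68% of reads in MBT2 and 4.49% in LM8. At 131857414 the added A of a run of 6 was in 1.64% of reads in MBT2 and 1.39% in LM8. The site at 131859555 was the highest of the 3 and that at 131857414 the lowest in both lines.

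Members were spread over many genes, with 488 named in MBT2 and 433 in LM8, of which 455 and 410 had a single member. Nolc1, which encodes a nucleolar phosphoprotein, was named at 3 sites in both lines, all runs of 6 A downstream of it, with 2.17%, 2.02% and 1.93% of reads in MBT2 and 2.62%, 2.23% and 1.93% in LM8. Scd1, the stearoyl-CoA desaturase that makes monounsaturated fatty acids, held 3 members in its 3′ UTR, each listed in both lines. The first site, at position 44384962 of chromosome 19, had the added T in 7 of 305 and 5 of 346 reads of MBT2 and in 10 of 488 and 5 of 455 reads of LM8, or 1.84% and 1.59%. The second, at 44383233, had it in 7 of 291 and 9 of 329 reads of MBT2 and in 19 of 557 and 17 of 554 reads of LM8, or 2.58% and 3.24%. A run of 6 A between them, at 44383293, had the added A in 5 of 442 and 15 of 461 reads of MBT2 and in 16 of 718 and 20 of 685 reads of LM8, or 2.21% and 2.57%. No Scd1 site differed between the lines by a point or more. Csnk2a1, the catalytic alpha subunit of casein kinase 2, had members at 2 runs of its 3′ UTR in LM8, with 4.55% and 2.73% of reads, and the first of them was also listed in MBT2, with 5.65%.

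Most members were in a few percent of the reads. The median fraction was 4.1% in MBT2 (quartiles 2.78 to 6.36) and 4.2% in LM8 (2.85 to 6.85), close to the frameshift insertions at 3.90% and 4.06%. These medians rest on a median depth of 225 reads per member in MBT2 and 215.5 in LM8, with 9 variant reads in the median and at least 3 in MBT2 and 2 in LM8. The fraction moved with the depth. Among members below 70%, the 129 of lowest depth in MBT2 (32 to 120 reads) had a median of 6.90%, and the 113 of lowest depth in LM8 (29 to 129 reads) had 7.25%. The 129 of highest depth in MBT2 (from 434 reads) had 2.37%, and the 113 of LM8 (from 449 reads) had 2.42%. A low fraction can be listed only where many reads cover the site, and the part of depth in these medians was not tested.

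Runs of 6 A and 7 A had median fractions of 4.18% and 4.07% in MBT2 and of 4.09% and 4.44% in LM8. Runs of 6 T and 7 T had 3.62% and 3.21% in MBT2 and 4.23% and 3.24% in LM8. The 18 members of MBT2 and 12 of LM8 with no annotated repeat had higher medians, 10.8% and 6.95%. The median base quality was 34 for variant reads and 34 for reference reads in MBT2, and 34 and 34 in LM8. The median mapping quality was 60, and the insertions lay a median of 19 bases from the read end in MBT2 and 18 in LM8.

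Both libraries had a variant read at 514 of 535 members of MBT2 and 459 of 466 of LM8. The libraries differed by a median of 1.52 percentage points in MBT2 and 1.61 in LM8, and by at most 25 and 20. Among members below 70%, Pearson's r between the duplicates was 0.374 over 516 members of MBT2 and 0.593 over 450 of LM8. In Fisher's exact tests of the duplicates with Benjamini-Hochberg adjustment over each list, 0 of 535 members of MBT2 and 0 of 466 of LM8 passed 0.05. Over all variants the share called was 0% in MBT2 and 0% in LM8. At an unadjusted p below 0.05, 21 members of MBT2 (3.93%) and 18 of LM8 (3.86%) passed, beside 3.76% of all variants of MBT2 and 3.89% of LM8. The tests thus found no difference between the duplicates beyond sampling noise, and their reads were summed so that each line counts as 1 sample.

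A separate class of members was in most of the reads. No member of MBT2 lay between 22.9% and 82.5%, and none of LM8 between 27.1% and 71.5%. Above this gap stood 19 members of MBT2 (3.55%) and 16 of LM8 (3.43%), of which 17 and 15 were outside runs of 6 or 7. Their median depth was 48 reads in MBT2 and 59 in LM8, lower than that of the set. A population allele frequency field of the caller, given as a negative log10 value, was under 1 at 6 of 19 in MBT2 and 7 of 16 in LM8. Among the other members it was under 1 at 3 of 516 and 3 of 450. Only 1 high member was listed in both lines, an added A in intergenic sequence of chromosome 4 at position 143711941, in 22 of 24 and 21 of 24 reads of MBT2 and 22 of 26 and 30 of 34 reads of LM8. Over all variants, 19.8% of the list of MBT2 and 23.2% of that of LM8 were in both. The lists give no reads at sites that they do not hold, so an insertion listed in 1 line may be present or uncovered in the other.

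**Figure D4:**
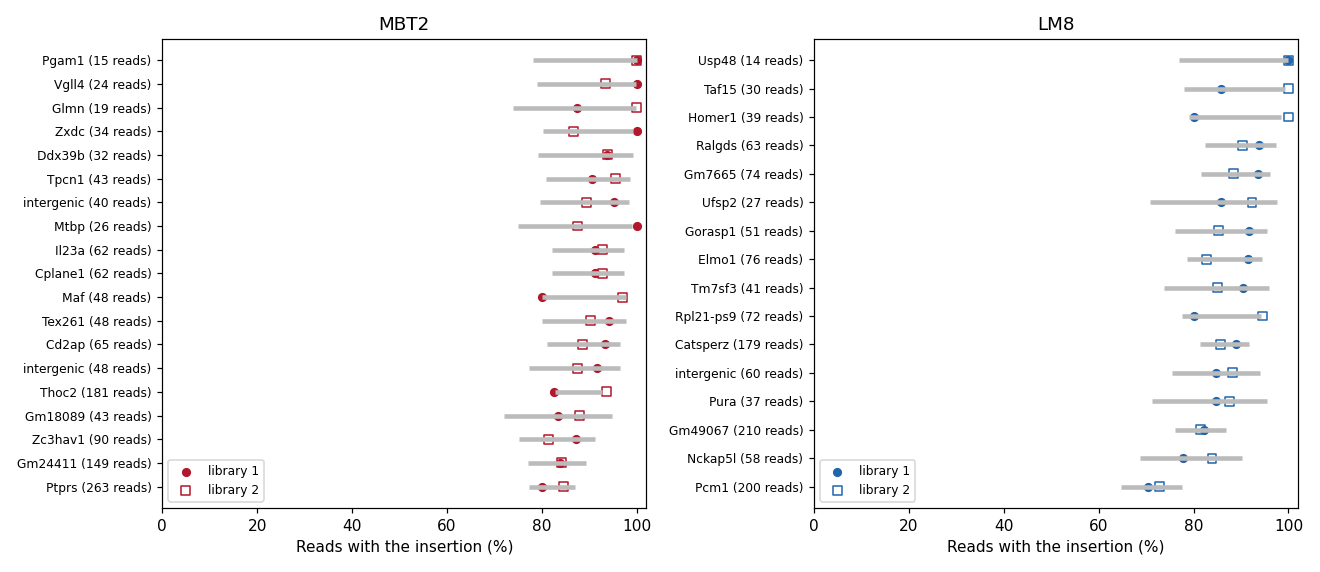
Percent of reads with the insertion in library 1 (circles) and library 2 (squares) for each member at 70% or more, in MBT2 (left) and LM8 (right), with the reads of both libraries in brackets and the 95% exact binomial interval of the sum as a grey bar. The summed values lie between 82.5% and 100% in MBT2 and between 71.5% and 100% in LM8.

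Of the 10 high members in 3′ UTRs, 5 in each line, 8 lay in runs of 8 or more bases. Most of these are shown to set their length beside the runs of 6 and 7 above.
Vgll4 in MBT2: aacagaaagAAAAAAAAAAtcctggggg
Maf in MBT2: atataatacAAAAAAAAAtcgcaaaaac
Cd2ap in MBT2: tttatttgttAAAAAAAAgttaggtttt
Tex261 in MBT2: gtgAAAAAAAAAAAAAAAAAAAAAcatt
Tpcn1 in MBT2: gcaggcacagCCCCCCCCtcctgttctc
Pcm1 in LM8: cagcacatttAAAAAAAAgacactaaat
Elmo1 in LM8: actttccagcTTTTTTTTaattatttta

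Vgll4, a cofactor of TEAD transcription factors, had the added A at a run of 10 in 9 of 9 and 14 of 15 reads of MBT2 (95.8%). Maf, a basic leucine zipper transcription factor, had it at a run of 9 in 12 of 15 and 32 of 33 reads (91.7%). Cd2ap, an adaptor protein of the actin cytoskeleton, had it at a run of 8 in 28 of 30 and 31 of 35 reads (90.8%). Tex261 had the added A at a run of 21 in 16 of 17 and 28 of 31 reads (91.7%), the longest run of the set. Tpcn1, an endolysosomal two-pore cation channel, had an added C at a run of 8 in 19 of 21 and 21 of 22 reads (93.0%). None of these 5 was listed in LM8, whose reads at these sites are not given.

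In LM8, Elmo1, which acts in engulfment of dying cells and in cell migration, had the added T at a run of 8 in 43 of 47 and 24 of 29 reads (88.2%). Pcm1, a scaffold protein of centriolar satellites, had the added A at a run of 8 in 71 of 101 and 72 of 99 reads (71.5%, exact interval 64.7 to 77.6), the lowest of the high members. Tm7sf3 and Nckap5l had an added A in 3′ UTRs of LM8 with no annotated repeat, in 36 of 41 and 47 of 58 reads (87.8% and 81.0%). Outside 3′ UTRs, Homer1 and Taf15 were named by high members at runs of 11 and 9 T, with 92.3% and 93.3% of reads. Homer1 encodes a scaffold protein of the postsynaptic density, and Taf15 an RNA-binding protein of the FET family. The low depth, as with 14 reads at Usp48, makes the upper values imprecise.

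Splice sites held 5 members in MBT2 and 3 in LM8, of which 4 and 2 were in 70% of reads or more. In MBT2 these were Mtbp with 10 of 10 and 14 of 16 reads, Cplane1 with 31 of 34 and 26 of 28, Thoc2 with 71 of 86 and 89 of 95, and Ptprs with 96 of 120 and 121 of 143. Thoc2 encodes a subunit of the THO complex of mRNA export, Ptprs a receptor-type protein tyrosine phosphatase, and Mtbp a protein that binds Mdm2. In LM8 they were Gorasp1, a Golgi stacking protein, with 22 of 24 and 23 of 27 reads, and Catsperz, a subunit of the sperm calcium channel, with 72 of 81 and 84 of 98. The fifth of MBT2, Rnf149, was in 5 of 48 and 5 of 47 reads, and the third of LM8, Ankrd10, in 1 of 23 and 2 of 26. None of these 8 was listed in both lines, and the reads of the other line at these sites are not given. Splicing itself was not measured in the lists.

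Mitochondrial RNA held 5 members in MBT2 and 3 in LM8, all labelled upstream of a transfer RNA gene and read from the plus strand. They were among the deepest of the set and low in fraction. At position 4313, in a run of 6 A, the added A was in 42 of 1550 and 61 of 1677 reads of MBT2 and in 35 of 1637 and 57 of 1692 reads of LM8, or 3.19% and 2.76%. At position 3619, in a run of 6 A, it was in 8 of 1218 and 29 of 1424 reads of MBT2 and in 28 of 1398 and 19 of 1409 reads of LM8, or 1.40% and 1.67%. At position 13052 the added base was C, in a run of 7, in 29 of 1496 and 30 of 1623 reads of MBT2.

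Of the 831 sites, 170 were listed in both lines, which is 31.8% of the members of MBT2 and 36.5% of those of LM8. Of all variants, 1261 were listed in both lines, 19.8% of those of MBT2 and 23.2% of those of LM8. The shared sites had a median depth of 308 reads in MBT2 and 254.5 in LM8, against 188 and 195 at the sites listed in 1 line. In runs of 6 or 7 lay 161 of them (94.7%), and in 168 the added base was A or T. Their median fraction was 4.18% in MBT2 and 4.09% in LM8. MBT2 was higher at 86 sites and LM8 at 84, and the median difference, MBT2 minus LM8, was 0.0453 percentage points (quartiles -0.826 to 0.784). The lines were within 2 points of each other at 130 sites (76.5%).

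**Figure D5:**
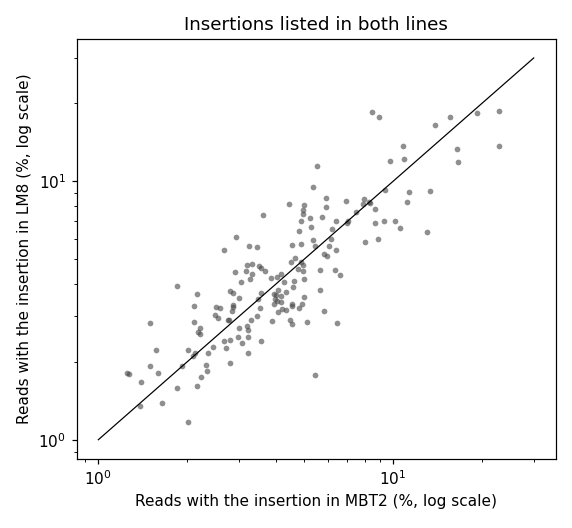
Percent of reads with the insertion in MBT2 (horizontal) and in LM8 (vertical), both on log axes with the line of equality, for the 169 shared members below 70%. Pearson's r was 0.833 and Spearman's rho 0.822 over these sites, which share their sequence and, in part, the depth of their gene. These values are over summed libraries, so they are not comparable with the duplicate r, taken over single libraries of all members below 70%.

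Fisher's exact test of the summed reads, adjusted over the 1261 variants listed in both lines, called 0 of the 170 shared members different between MBT2 and LM8. It called 7.3% of all shared variants, or 92, a count that was 11 when long deletions were left out and 54 without the first LM8 library. At an unadjusted p below 0.05 it called 1 of the 170 members, beside 13.6% of all. Both shares over all shared variants include long deletions, so they are not a close background for single-base insertions. These tests compare the reads of 1 pooled sample per line. Ddx21, an RNA helicase of the nucleolus that is named here because it had the smallest p, had the added T in 3.62% of 608 reads in MBT2 and 7.42% of 512 reads in LM8 (exact p = 0.00515, adjusted p = 0.067). Without the first MBT2 library its adjusted p was 0.0231, and it was then the 1 member called.

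Of the highest shared sites below 70%, some differed widely between the lines and others little, all at depths below the medians of the shared sites. Midn, named by a downstream label, had the added A in 8 of 34 and 10 of 45 reads of MBT2 and in 7 of 30 and 5 of 34 reads of LM8, or 22.8% and 18.8%. Psmb4, also by a downstream label, had an added T in 19.2% of 78 reads in MBT2 and 18.4% of 76 in LM8. Ccdc47, which encodes a membrane protein of the endoplasmic reticulum, had the added T at a run of 5 in its 3′ UTR in 11 of 54 and 22 of 90 reads of MBT2 and in 13 of 76 and 8 of 77 reads of LM8, or 22.9% and 13.7%. Bag4, a co-chaperone of Hsp70 proteins, had the added A in 3 of 25 and 1 of 22 reads of MBT2 and in 4 of 24 and 4 of 19 reads of LM8, or 8.51% and 18.6%. Its difference of -10.1 points was the largest of the 170 on either side and had an adjusted p of 0.783 by Fisher's exact test. Tmem25, named by a downstream label, had an added A in 8.97% of 78 reads in MBT2 and 17.7% of 79 in LM8.

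The composition of the set was compared between lines and with the frameshift insertions in 12 Fisher's exact tests, and none passed after Benjamini-Hochberg adjustment over the 12. Members were 8.41% of the list in MBT2 (7.74 to 9.12) and 8.56% in LM8 (7.83 to 9.33), with an odds ratio of 0.981 and an adjusted p of 0.863. In LM8, 36.5% of members against 45.9% of frameshift insertions were listed in both lines (odds ratio 0.676, exact p = 0.0353, adjusted p = 0.257). A fraction of 10% or more was found in 59 of 535 members against 17 of 232 frameshift insertions in MBT2 (11% and 7.33%, odds ratio 1.57, adjusted exact p = 0.442). At a threshold of 20% that odds ratio was 4.70 (adjusted exact p = 0.124). Without the members at 70% or more, the odds ratio was 1.06 for a fraction of 10% or more. In LM8 it was found in 54 of 466 against 12 of 172 (11.6% and 6.98%, odds ratio 1.75, adjusted exact p = 0.427), and without the second LM8 library the odds ratio was 2.83 with an adjusted p of 0.0339. An annotated repeat was at 97.4% of members against 100% of frameshift insertions in LM8 (adjusted exact p = 0.257), and without the upstream and downstream members that adjusted p was 0.0337.

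Insertions outnumbered deletions of a single base outside coding frames, and the runs they lay in were of different length. There were 535 insertions to 59 deletions in MBT2 and 466 to 68 in LM8. In runs of 6 or 7 there were 477 insertions to 5 deletions in MBT2 and 416 to 11 in LM8. In runs of 9 or more there were 4 insertions to 21 deletions in MBT2 and 3 to 17 in LM8. The file headers name a filter for contraction of short repeats. The calls it removed are not in the lists, and its part in these counts was not tested.

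Few members fell in the gene lists that were looked up by name. Of 61 cancer driver genes, 5 were named in MBT2 and 4 in LM8, and only Stag2 and Mdm4 by a position inside the gene. A listed variant of any type was found for 35 of the 61 in MBT2 and 31 in LM8. Stag2, a subunit of cohesin on the X chromosome, had the added A in its 3′ UTR in 7 of 189 and 7 of 203 reads of MBT2 and in 2 of 92 and 5 of 97 reads of LM8, or 3.57% and 3.70%. Mdm4, an inhibitor of p53, had an added C in LM8, in 15 of 71 and 11 of 69 reads (18.6%, exact interval 12.5 to 26). Of 9 members of LM8 with an added C on the RNA strand, 2 were at 70% or more, and Mdm4 was among the others. Its run of C is printed below.
Mdm4 in LM8: ccagggcctgCCCCCCCagtgtcgtaat

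Trp53, which encodes p53, was named by an upstream label at 69478248 of chromosome 11, where the added T of a run of 6 was in 12 of 533 and 18 of 540 reads of MBT2 and in 12 of 251 and 7 of 253 reads of LM8, or 2.80% and 3.77%. Nras was named by an upstream label at 102965087 of chromosome 3, where the added A of a run of 7 was in 11 of 224 and 18 of 282 reads of MBT2 and in 11 of 163 and 15 of 196 reads of LM8, or 5.73% and 7.24%. Apc and Pik3ca were named by downstream labels in MBT2 alone, with 5 of 124 and 6 of 150 reads.

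Of 25 genes of poly(A) tail formation and RNA binding, 2 were named in MBT2 and 1 in LM8, while 11 and 13 had a listed variant of any type. Zfp36l2, which binds AU-rich elements and promotes decay of mRNA, had the added A in its 3′ UTR in 27 of 672 and 31 of 772 reads of MBT2 and in 10 of 257 and 9 of 264 reads of LM8, or 4.02% and 3.65%. The other, Pan3, a subunit of a poly(A) nuclease, was named by a downstream label in MBT2 with 4 of 71 reads. Of 27 antigen presentation genes, 1 was named in MBT2, Erap1, a trimming peptidase, by a downstream label with 8 of 110 reads, and 0 in LM8. A listed variant of any type was found for 10 of the 27 in MBT2 and 9 in LM8. Of 15 housekeeping genes, 1 was named in MBT2, the beta-tubulin gene Tubb5, with 23 of 981 and 27 of 1005 reads in its 5′ UTR, and 0 in LM8. A listed variant of any type was found for 5 of the 15 in MBT2 and 4 in LM8. The collagen genes Col1a1 and Col1a2 were named in LM8 alone, by an upstream and a downstream label, with 2.24% and 1.40% of reads. A gene without a listed member may lack a run, reads or the insertion, and these were not told apart.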

How the data were processed

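RNA of 2 MBT2 and 2 LM8 libraries was measured, and samples were grouped by the line in their titles. The submitters' processing notes name STAR 2.7.9a, cutadapt 1.9.1, bcl2fastq 2.17.1.14 and the build GRCm39. The authors called the duplicates of each line together, with Mutect 2.2 and no matched normal, then filtered with GATK 4.1.5.0 and annotated with SnpEff 5.1d, 1 effect per variant, per the file headers. The processing notes name GATK 4.3.0. The deposited lists hold passing calls only, with reads per allele and library, per the file headers, and an allele fraction estimated by the caller, which served as an alternative.

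Members were selected by allele length and effect. A fraction is variant reads over the reads of both alleles, summed over the duplicates unless a library is named. RNA strand was set where at least 90% of oriented pairs agreed. Members in 3′ UTRs were placed on GENCODE M21 transcripts (an earlier build, so no coordinate was transferred) by distance from the stop codon, run base, run length and the base before the run. Fisher's exact tests were two-sided and Benjamini-Hochberg adjusted (Python 3.11.15, scipy 1.17.1), the exact Mantel-Haenszel test used R 4.3.3, and intervals are exact binomial (Clopper-Pearson) at 95%. The test code was tested on simulated data. Members of each line were covered by 96474 and 103498 reads in MBT2 and 85243 and 82536 in LM8.

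Genes named in the text were the 10 members of highest fraction with at least 20 reads, the 10 deepest, the 10 shared members of highest mean fraction, those with most repeat copies, those at 70% or more, the genes with most members, members of the gene lists, mitochondrial members and effect classes with fewer than 6 members. Ddx21 and Nucks1 were added after their values were seen, as were the class at 70% or more and the mitochondrial class. Pcm1, Nckap5l and Usp48 are named through the class at 70% or more alone. Some genes of the lists are not reported here. The members and lists were chosen with earlier results of these data known. Alternatives were another fraction estimate, other thresholds, adjustments and depth minimums, leaving out each library, and leaving out long deletions, upstream and downstream members or high members.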

Additional observations from a re-analysis of the deposited data

How the results depend on the processing

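Of the alternatives to the main counts, medians and shares, 87 kept direction and call, 11 moved a value, 6 turned a direction and 2 gave a call. The turned odds ratios were 1.01 for members in the list (MBT2 over LM8) without long deletions and 1.01 without upstream and downstream members, 0.808 for private members with a run of 8 or more copies, 1.24 for private members at 10% or more without upstream and downstream members, and 1.11 for A or T (members over frameshift insertions in MBT2) without high members. For private members at 10% or more, leaving out a library gave odds ratios of 0.598 to 1.04. For members against frameshift insertions at 10% or more in LM8 it gave 1.69 to 2.83 (adjusted exact p = 0.0339 without the second LM8 library), and the annotated repeat share of LM8 without upstream and downstream members had an odds ratio of 0 (adjusted p = 0.0337). At a threshold of 20% the LM8 odds ratio could not be computed, since 0 frameshift insertions reached it. No turned odds ratio passed the test in either direction. The cause of these changes was not tested.

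Without upstream and downstream members, 254 members of MBT2 and 215 of LM8 remained, with median fractions of 4.35% and 4.35%. The caller's estimate gave medians of 4.65% and 4.75%, LM8 without high members gave 4.08%, and single libraries gave 3.8% to 4.0% in MBT2 and 4.0% to 4.08% in LM8. The count of shared members called different was 0 to 1 when a library was left out. Library numbers did not pair the samples: the correlation of same-numbered deviations was 0.072 over 169 shared members, and an exact Mantel-Haenszel test with the library number as a replicate block called 0 of 170. The power to find a difference of a few percentage points at a single member was not computed. It is limited at members of median depth, with 9 variant reads in the median.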
